A study of Mus musculus with 41 samples.

Results

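The regions described here are sites listed for Runx2 in 3T3 mouse fibroblasts on both days of an osteogenic culture and in no skeletal or background list of the series. A peak of the 3T3 Runx2 day 3 list was a member when it overlapped, by at least 1 bp, a peak of the list named for 3T3 Runx2 day 0. It also had to overlap no peak of 6 other lists, which were Runx2 in rib chondrocytes, Runx2 in calvarial osteoblasts, Foxa2 in rib chondrocytes, Jun in calvarial osteoblasts, and the lists named for green fluorescent protein (GFP) at day 0 and day 3. This left 11118 members out of 50180 day 3 peaks and out of 155773 peaks in all 8 lists. The members were chosen by the measured overlaps between these lists, so those overlaps are given as a description, with no test.

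Runx2 is a runt-domain transcription factor that binds DNA together with its partner Cbfb and is required for osteoblast formation and for the maturation of cartilage cells. 3T3 cells are a mouse embryonic fibroblast line. Transcription factors generally occupy different sites in different cell types, because the chromatin and the partner factors at hand differ. Jun is a subunit of AP-1, a factor active at the enhancers of many cell types including fibroblasts. Foxa2 is a forkhead factor that acts in cartilage.

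The 3T3 libraries were FLAG precipitations, 1 per condition, from cells overexpressing tagged Runx2 (Runx2BioFL) at day 0 and at day 3 of an osteogenic medium. Others came from cells overexpressing GFP on the same days. For the day 3 libraries 100 ng/ml rhBMP-2 is given, and for the day 0 libraries none is given, so the days also differ in this. The GFP cells lack the tagged factor, so their lists are the background of the FLAG precipitation. The skeletal Runx2 lists came from rib chondrocytes and calvarial osteoblasts of C57BL/6 mice at postnatal day 1, heterozygous for a tagged Runx2 knock-in allele (Runx2-BioFL/+), with 2 libraries and 1 list for each cell type. Foxa2 and Jun lists came from wild-type C57BL/6 mice of the same age, with 1 library each. The 3T3 factor was thus an added, overexpressed one in a single cell line, whereas the skeletal factor was expressed from its own locus, and rib and calvaria were each represented by 1 cell type. Every group had 1 list without scores, so no value below has a replicate error and no test was made. How deeply the libraries were sequenced is not given in the sources used here. Intervals are 95% Wilson intervals. They reflect counting error alone, and peaks that lie side by side are not independent of each other.

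The identity of 2 lists on which the rule rests was uncertain. In the sample descriptions, the list named for Runx2 day 0 was tied to the GFP day 3 library, and the list named for GFP day 3 to the Runx2 day 0 library. Both lists were used here under their own names. With these lists exchanged, 1015 day 3 peaks met the rule, and 0 of them were among the 11118, since a member may not overlap the list named for GFP day 3. Of the list named for Runx2 day 0, 81.8% of the peaks overlapped Runx2 day 3, 27.2% chondrocyte Runx2 and 20.7% osteoblast Runx2. Of the list named for GFP day 3, 41.9% overlapped Runx2 day 3, 14.7% chondrocyte Runx2 and 15.1% osteoblast Runx2. The labels alone cannot tell these readings apart, and "held on both days" below means held by the names of the lists.

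Among the sites held on both days, 43.1% were in neither a skeletal list nor a background list. Of the 50180 day 3 peaks, 25771 overlapped the list named for Runx2 day 0 (51.4%), and 11118 of these were in none of the 6 other lists, or 22.2% of all day 3 peaks. The GFP lists also come from 3T3 cells, and with neither of them left out 13335 held peaks met the rule. Chondrocyte Runx2 accounted for the most peaks left out, with 7628 of the held peaks (29.6%, against 18.4% of all day 3 peaks). The list named for GFP day 3 touched 6194 held peaks (24.0%, against 15.9% of all), osteoblast Runx2 5911 (22.9%, against 14.1%), Jun 5232 (20.3%, against 13.1%), GFP day 0 1251 (4.85%, against 3.30%) and Foxa2 858 (3.33%, against 3.24%). Many of the held peaks left out were in more than 1 of these lists, and 6634 were in a single one. Chondrocyte Runx2 alone kept 2113 peaks out, the list named for GFP day 3 alone 1802, Jun alone 1215, osteoblast Runx2 alone 1050, Foxa2 alone 259 and GFP day 0 alone 195. Sorted into exclusive classes, 6650 held peaks overlapped a GFP list, 6515 a skeletal Runx2 list but no GFP list, and 1488 only Foxa2 or Jun. The 6515 peaks held with skeletal Runx2, and the 19293 day 3 peaks in no other list, serve below as the classes set beside the members.

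Some members lay directly beside peaks of the lists left out. A member on chromosome 5, at chr5:37379928-37380141 (build mm9, as are all positions here), and another at chr12:101766726-101766992 ended exactly where an osteoblast Runx2 peak began or began where one ended, with 0 bases between. Another, at chr4:107106890-107107014, lay 1 base from an osteoblast Runx2 peak. On the other side of the rule, the held peak at chr14:35362684-35362847 shared 1 bp with an osteoblast Runx2 peak, that at chr5:23930875-23930984 shared 1 bp with a chondrocyte Runx2 peak, and that at chr2:103525522-103525931 shared 1 bp with an osteoblast Runx2 peak, so these were left out. Such cases were few: 48 members had a skeletal Runx2 peak within 10 bp, and 46 held peaks were left out for an overlap with skeletal Runx2 of under 10 bp alone. Within 500 bp of a peak of any of the 6 lists lay 2521 members (22.7%, 21.9 to 23.5%), against 17.2% (16.6 to 17.7%) of the day 3 peaks in no other list. This left 8597 members farther from each of them.

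The members were mostly separate sites, and so were the day 3 peaks as a whole. Of all 50180 day 3 peaks, 5752 overlapped another day 3 peak. When overlapping day 3 peaks were joined, the members fell into 10897 of 46956 joined regions, and 10505 members (94.5%) stood alone in theirs. A further 210 members (1.89%) overlapped, directly or through a chain, a day 3 peak that was no member, and 47 of them (0.423%) were joined in this way to a peak in a skeletal Runx2 list.

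The position of peaks in the file differed between the classes. The peak lists carry no score, and what their order stands for is not given in the sources used here, so the position is given as the percentage of the file's rows that come before a peak. Members had their median at 45.2% of the day 3 file (quartiles 28.9 and 64.7%). Peaks held with skeletal Runx2 lay earlier, with a median of 23.0%, and peaks of day 3 alone lay later, with a median of 73.5%. This order was the same on 20 of 20 chromosomes for both comparisons, and the chromosomes' medians for members ranged from 41.0 to 51.5%.

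In the first decile of the day 3 file (10 equal parts in file order, of 5018 peaks each), 648 of 4804 held peaks were members (13.5%, 12.6 to 14.5%). In the fourth decile it was 1708 of 3396 (50.3%, 48.6 to 52.0%), and in the last 549 of 727 (75.5%, 72.3 to 78.5%). Over the same span, held peaks in a GFP list went down from 48.3% to 0.413%, and those with skeletal Runx2 but no GFP list from 36.0% to 16.9%. Foxa2 or Jun alone took 2.21% in the first decile and between 4.89 and 8.53% in the others. With the GFP lists not used at all, held peaks in none of the skeletal Runx2, Foxa2 and Jun lists made up 21.9% in the first decile and 75.9% in the last. These shares still rest on the list named for Runx2 day 0. Among the single lists, chondrocyte Runx2 overlapped 57.9% of the held peaks in the first decile and 12.9% in the last, osteoblast Runx2 51.2% and 7.02%, and Jun 32.7% and 6.88%. Foxa2 overlapped 3.04% in the first decile and 4.54% in the last.

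**Figure D1:**
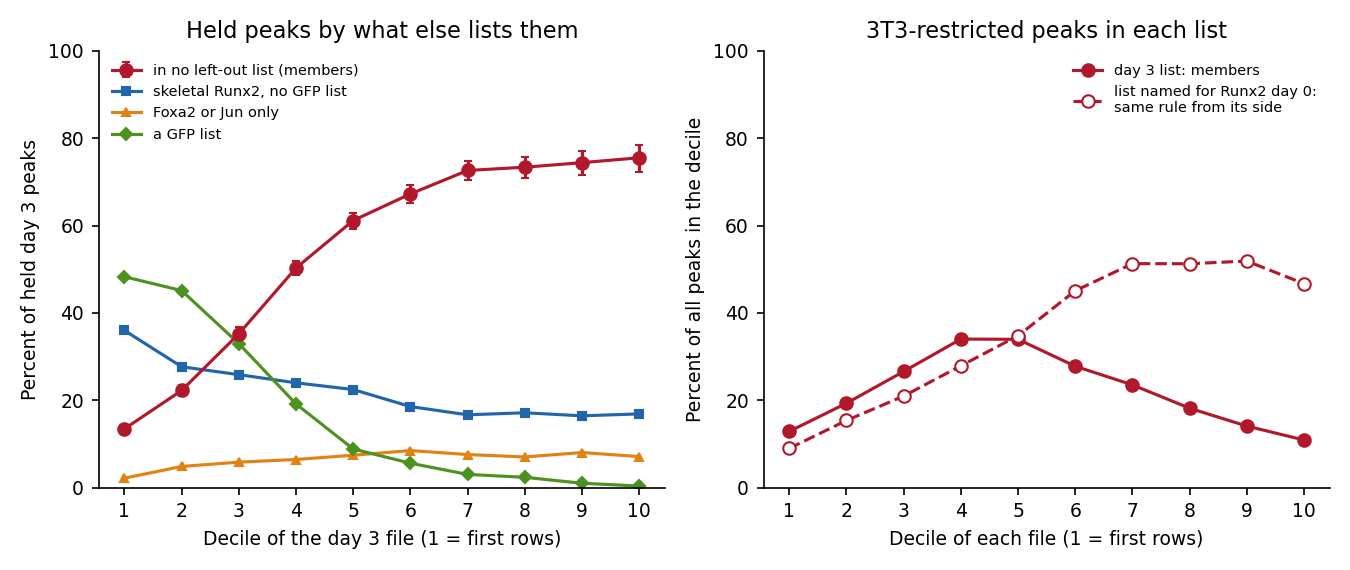
Left: percent of the held day 3 peaks (y axis) in each decile of the day 3 file (x axis) that were members (circles, with 95% Wilson intervals), overlapped skeletal Runx2 but no GFP list, only Foxa2 or Jun, or a GFP list. Members made up 13.5% of held peaks in the first decile and 75.5% in the last. Right: restricted peaks as percent of all peaks in each decile of the day 3 list (filled) and of the list named for Runx2 day 0 (open). The day 3 curve is highest in the fourth decile (34.0%).

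As a share of all day 3 peaks, members were most frequent in the middle of the file, with 12.9% in the first decile, 34.0% in the fourth, 34.0% in the fifth and 10.9% in the last. Held peaks, members or not, were 95.7% of the peaks in the first decile and 14.5% in the last. In the share of held peaks, the list named for Runx2 day 0 showed a similar rise from its own side. Its peaks that overlapped day 3 and none of the 6 lists numbered 10991 of 31013 (35.4%). They made up 9.23% of its held peaks in the first decile and 77.8% in the last. As a share of all its peaks they were most frequent in the ninth decile, at 51.9%. The shares in the first and last deciles were 9.03% and 46.7%. The day 0 partners of the members lay at a median of 64.6% of that file. Over the 11118 members the positions in both files went together with a Spearman coefficient of 0.67, against 0.81 over the 6515 peaks held with skeletal Runx2. These coefficients describe peaks of the same libraries, and the files differ in length.

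The first 5 members in the day 3 file were of different kinds, 3 close to peaks of left-out lists and 2 away from them. The first, at row 45, was at chr15:80085700-80085901, and the second, at row 68, overlapped it at chr15:80085628-80085878. They lay 18 and 41 bp from a GFP day 0 peak and 23 and 46 bp from a peak named for GFP day 3, with the nearest skeletal Runx2 peak 8707 and 8730 bp away. The one after it, a narrow peak of 87 bp at chr11:86571293-86571379, lay 3 bp from a Jun peak, 52 bp from one named for GFP day 3 and 57 bp from a chondrocyte Runx2 peak. The fourth, at chr4:123491449-123491621, had its nearest osteoblast Runx2 peak 16144 bp, Jun 63756 bp and GFP day 0 96120 bp away. Another member lay 10163 bp from it. The fifth, at chr17:56345902-56346083, had its nearest Foxa2 peak at 6118 bp and its nearest chondrocyte Runx2 peak at 11941 bp. The first 3 were thus within 41 bp of a peak of a left-out list, and the other 2 were at least 6118 bp from each of them.

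The rule asks for an overlap, which limits how far apart the day 3 and day 0 centres can lie. Their distances are therefore a description of the class. The centres of a member and its day 0 partner, the one with the largest overlap, were a median of 35.5 bp apart (quartiles 14.5 and 75.5 bp), and 44 members had exactly the same centre. The overlap covered a median of 97.4% of the shorter peak. It was complete for 4794 members (43.1%) and under 10 bp for 104, of which 13 shared a single base. Complete overlap was about as frequent in all 25771 held peaks (45.3%) and in the 6515 held with skeletal Runx2 (45.9%). More than 1 partner was found for 349 members, against 3634 of all held peaks and 592 of those held with skeletal Runx2. The median width was 207 bp for the members and 192 bp for their partners. The day 3 peak was the wider in 6260 pairs (56.3%), against 55.9% of all held peaks and 58.8% of those held with skeletal Runx2.

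Centres within 50 bp were found for 6868 members (61.8%, 60.9 to 62.7%), 4591 of the 6515 peaks held with skeletal Runx2 (70.5%, 69.3 to 71.6%) and 64.0% of all held peaks. The share was lower in members on 20 of 20 chromosomes. Within deciles of the file, the share in members was the higher in 4 of 10, with 85.0% against 87.1% in the first decile, 60.8% against 56.1% in the fifth and 47.9% against 45.5% in the last. Partners that themselves touched a left-out list, although the member did not, numbered 557 (5.01%), most often the list named for GFP day 3 (195) or Jun (192), and chondrocyte Runx2 in 148 cases.

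**Figure D2:**
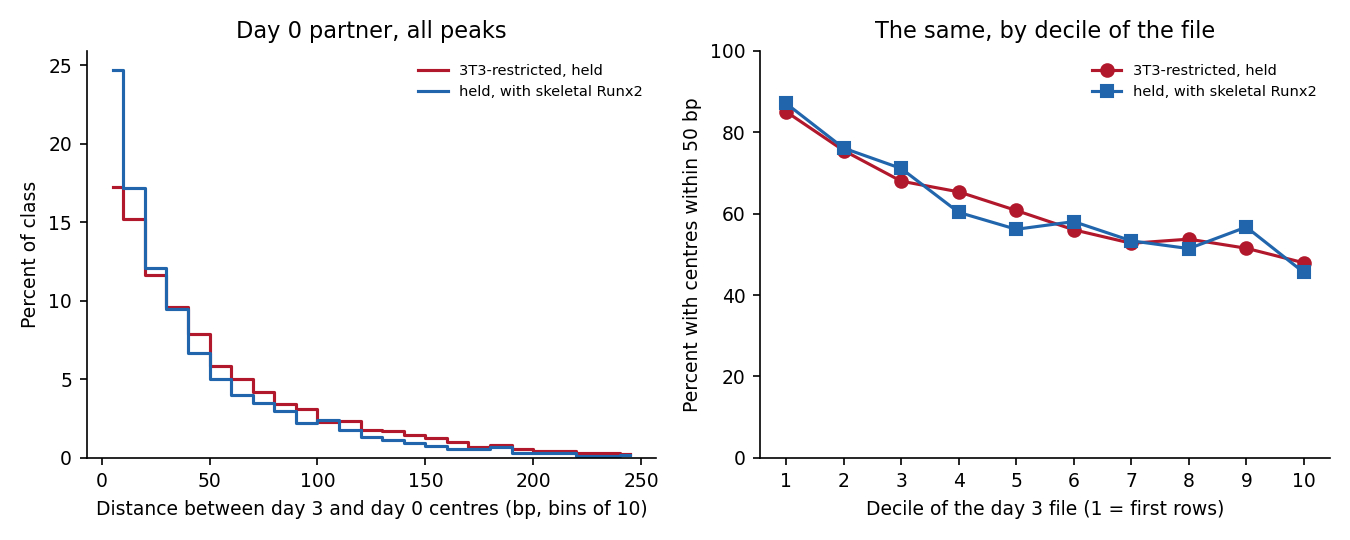
Left: percent of each class (y axis) by the distance between the centres of the day 3 peak and its day 0 partner (x axis, bins of 10 bp, shown to 250 bp), for members and for peaks held with skeletal Runx2. Right: percent with centres within 50 bp in each decile of the day 3 file. The classes are apart over all peaks (61.8% of members and 70.5% of peaks held with skeletal Runx2) and close to each other within deciles.

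For width, the order of the classes depended on whether file position was held fixed. Members had a median width of 207 bp (quartiles 161 and 268 bp), against 201 bp in peaks held with skeletal Runx2, 221 bp in peaks of day 3 alone and 213 bp in all day 3 peaks. Members were the wider on 15 of 20 chromosomes when set against peaks held with skeletal Runx2. Within deciles of the file the order was the reverse, and members were narrower in 10 of 10, with 176 bp against 178 bp in the first decile, 207 bp against 231 bp in the fifth and 264 bp against 296 bp in the last. Against day 3 alone, members were narrower on 20 of 20 chromosomes, but wider in 8 of 10 deciles and equal in 1. The part of width in which peaks met the rule was not tested, and with all peaks set to 200 bp 11065 peaks met it.

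The widest members spanned nearly 500 bp, and their day 0 partners did not always match them. At chr15:74555463-74555960 (498 bp) the partner was 123 bp wide, and at chr16:33892494-33892991 (498 bp) it was only 14 bp wide. The peak at chr9:72257402-72257899 (498 bp) had a partner of 403 bp with its centre 7.5 bp away. The remaining members among the 5 widest were at chr19:5488015-5488511, with a partner of 213 bp, and at chr6:91686701-91687197, with one of 193 bp. The chromosome 16 site lay 205 bp from a chondrocyte Runx2 peak and 537 bp from a Jun peak. The chromosome 9 site had no left-out list closer than the Foxa2 peak at 28065 bp.

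Members were found on each of the 20 chromosomes with day 3 peaks, and their share varied between chromosomes. They made up between 18.8% (chromosome 9, 446 of 2375) and 25.1% (chromosome X, 112 of 446, and chromosome 15, 804 of 3203) of the day 3 peaks. Chromosome 11 held the most, with 1090 members, or 9.80% of all. As a share of the held peaks, members were lowest on chromosome 9 (37.4%) and highest on chromosome 15 (51.4%), with a median over chromosomes of 42.6%.

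**Figure D3:**
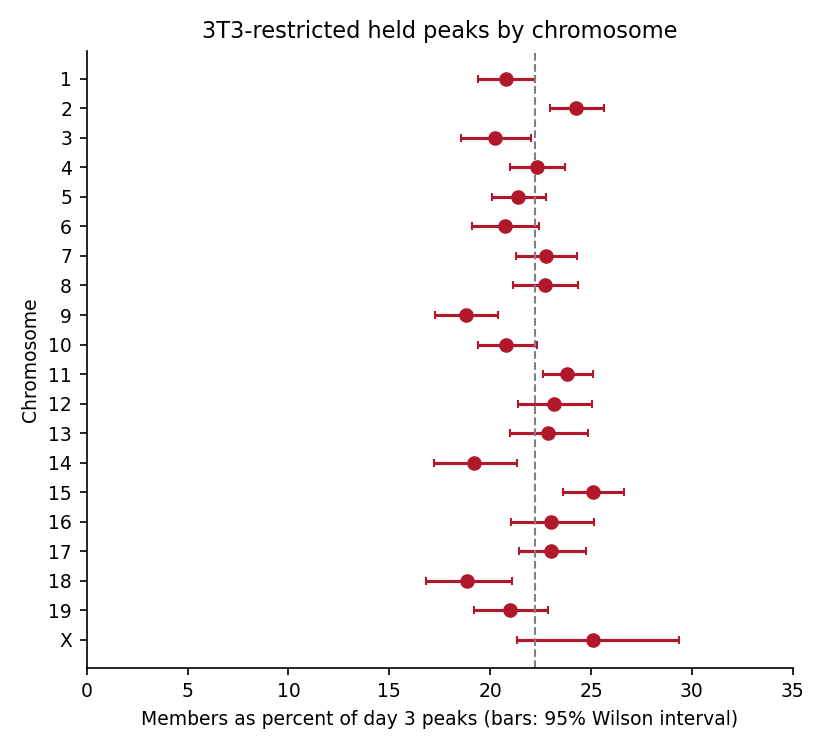
Members as percent of the day 3 peaks of each chromosome (x axis, points with 95% Wilson intervals) for chromosomes 1 to 19 and X (y axis). The dashed line marks the share over all chromosomes, 22.2%, and the points lie between 18.8 and 25.1%.

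Many members had another member nearby. The nearest other member lay a median of 17695 bp away (quartiles 3805 and 56830 bp), and 4764 members (42.8%, 41.9 to 43.8%) had one within 12500 bp. The shares were 34.2% in the smaller class held with skeletal Runx2 and 54.2% in the larger class of day 3 alone, so they rose with the sizes of the classes. Of all day 3 peaks, 78.9% had any other day 3 peak that near. The part of class size in these shares was not tested. Chained at that spacing, the members made 8267 groups, of which 6354 were single peaks. Groups of 3 or more numbered 594 and held 2126 members (19.1%). Such groups were not counted for the other classes or for all day 3 peaks.

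The densest stretch was on chromosome 15. The window chr15:74500001-74600000 held 12 members among 21 day 3 peaks, with 2 peaks each in the chondrocyte and osteoblast Runx2 lists and 0 in the Foxa2 and Jun lists. It also contained the longest chain, 10 members over 41371 bp at chr15:74550094-74591464, in which 10 of 12 day 3 peaks were members. That stretch held 10 peaks of the list named for Runx2 day 0, 2 of the list named for GFP day 3 and 0 of the chondrocyte Runx2, osteoblast Runx2, Foxa2, Jun and GFP day 0 lists. Of its window's members, the one nearest the front of the file, at row 11785, was at chr15:74552544-74552765. The next window, chr16:11000001-11100000, held 11 members among 21 day 3 peaks, with 4 osteoblast Runx2 peaks, 1 chondrocyte Runx2 peak and 1 Jun peak.

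Windows with 10 members numbered 4, and the first 3 by position were at chr6:31000001-31100000, chr8:110000001-110100000 and chr9:102600001-102700000. These differed from the first in what lay between the members. The chromosome 6 window had 10 chondrocyte and 3 osteoblast Runx2 peaks, and the chromosome 8 window had 9 and 3, with 8 Foxa2 peaks and 48 day 3 peaks in all. The chromosome 9 window had 6 and 3, with 5 Jun peaks and 8 of the list named for GFP day 3. The members nearest the front of the file were at chr16:11025092-11025307, chr6:31008974-31009199, chr8:110029555-110029777 and chr9:102681948-102682077, at rows 5803, 4688, 4373 and 6551.

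**Figure D4:**
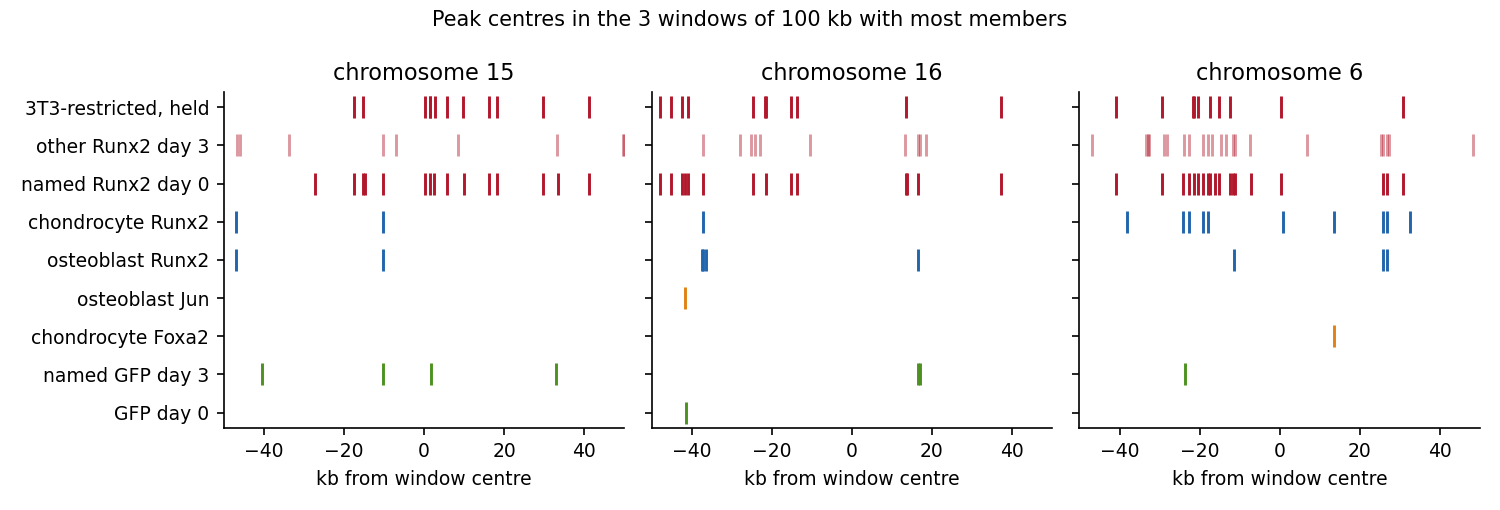
Centres of peaks (ticks) along the 3 windows of 100 kb with most members (12 on chromosome 15, 11 on chromosome 16 and 10 on chromosome 6), as kb from the window's centre (x axis), with 1 line for each list (y axis). On chromosome 15 the 12 members have few skeletal peaks among them, and on chromosome 6 they lie between 10 chondrocyte Runx2 peaks.

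A window of 100 kb dense in members was seldom without skeletal Runx2, and the same was true of windows dense in any day 3 peaks. Of the 5854 windows of 100 kb with a member, 4329 (73.9%) also held a skeletal Runx2 peak, and of the 336 windows with 5 or more members 309 (92.0%) did. In these 336 windows chondrocyte Runx2 was present in 84.2%, Jun in 81.5%, osteoblast Runx2 in 73.5% and Foxa2 in 67.9%, against 66.0, 61.1, 51.6 and 54.7% of the windows with any member. The list named for GFP day 3 was present in 76.5% of them, against 59.1%, and GFP day 0 in 34.8%, against 18.5%. Windows with 5 or more day 3 peaks of any kind, 4057 in number, held chondrocyte Runx2 in 83.1%, Jun in 77.0%, the list named for GFP day 3 in 75.1%, osteoblast Runx2 in 68.6%, Foxa2 in 63.4% and GFP day 0 in 26.5%. Skeletal Runx2 was in 89.7% of those windows. The 11092 windows with any day 3 peak held skeletal Runx2 in 71.3%, chondrocyte Runx2 in 63.0% and Jun in 55.3%. They held the list named for GFP day 3 in 53.0%, Foxa2 in 51.7%, osteoblast Runx2 in 47.3% and GFP day 0 in 15.5%. Windows with members and none of the 6 lists numbered 488 (8.34%). The same share was not computed for windows with any day 3 peak. Among the windows with 5 or more members, 1 had none of the lists: chr12:105300001-105400000, which was chosen after its values were seen. It held 5 day 3 peaks, 5 of them members, and 5 peaks of the list named for Runx2 day 0, and its member nearest the front of the file was at chr12:105302919-105303368.

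At 10 kb, skeletal Runx2 peaks were about as frequent near members as near the day 3 peaks in no other list. A skeletal Runx2 peak lay within 10 kb of 4540 members (40.8%, 39.9 to 41.8%) and of 7723 of the 19293 peaks of day 3 alone (40.0%, 39.3 to 40.7%). Over all day 3 peaks, including those that overlap one, the share was 56.7%. The median distance was 14894 bp for members and 15657 bp for day 3 alone. Members were the closer by this share on 12 of 20 chromosomes and in 5 of 10 deciles of the file. At shorter range the shares were also the higher in members, but the difference did not widen steadily. Within 1 kb they were 13.9% of members (13.3 to 14.6%) and 12.4% of day 3 alone (11.9 to 12.9%). Within 500 bp they were 8.99% of members (8.48 to 9.54%) and 8.15% of day 3 alone (7.78 to 8.55%). Within 100 bp they were 2.92% of members (2.63 to 3.25%) and 1.71% of day 3 alone (1.54 to 1.90%), and members had the higher share on 16 of 20 chromosomes and in 6 of 10 deciles of the file. Within 10 bp lay 48 members (0.432%) and 35 peaks of day 3 alone (0.181%).

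Split by skeletal cell type, the shares were again close to those of day 3 alone. Within 10 kb, 1764 members (15.9%) had chondrocyte Runx2 only, 896 (8.06%) osteoblast Runx2 only and 1880 (16.9%) both. The shares in day 3 alone were 15.9, 7.52 and 16.6%. The chondrocyte list is also the longer, with 15390 peaks against 10241. Of the members with a skeletal peak that near, 2783 of 4540 (61.3%, 59.9 to 62.7%) had as their nearest one a peak that was itself in the Runx2 day 3 list, against 55.0% of all 25631 skeletal Runx2 peaks. The first share counts members and the second counts skeletal peaks, and the same share was not computed for day 3 alone. On chromosome X 18.8% of members had a skeletal Runx2 peak within 10 kb, against 19.2% of day 3 alone, and both shares were the lowest of the 20 chromosomes. The 3 members farthest from one, chosen after their values were seen, were all on that chromosome, at chrX:65875399-65875592, chrX:126284057-126284224 and chrX:39502287-39502480. Their distances were 4597773, 4162080 and 2493483 bp, but the last had a GFP day 0 peak 363 bp away and the second a peak named for GFP day 3 282 bp away.

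For Jun the shares lay further apart. A peak of the AP-1 subunit Jun from osteoblasts lay within 10 kb of 3713 members (33.4%, 32.5 to 34.3%) and of 5372 peaks of day 3 alone (27.8%, 27.2 to 28.5%). The share in members was the higher on 19 of 20 chromosomes and in 9 of 10 deciles of the file, with 33.7% against 27.9% in the fifth decile and 34.8% against 26.3% in the last. The exception was decile 3, with 33.4% against 35.3%. Within 500 bp the shares were 9.31 and 6.04%, and here members were the higher in 6 of 10 deciles.

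For Foxa2 in chondrocytes the share was slightly lower in members. They lay within 10 kb of 2365 members (21.3%, 20.5 to 22.0%) and of 4403 peaks of day 3 alone (22.8%, 22.2 to 23.4%). The share in members was the lower in 9 of 10 deciles of the file and on 15 of 20 chromosomes.

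Over the whole file, the background lists stood near members more often than near day 3 alone, but for the list named for GFP day 3 the order depended on file position. A peak of the list named for GFP day 3 lay within 10 kb of 31.8% of members (31.0 to 32.7%) and 25.6% of day 3 alone (25.04 to 26.27%). It was the more frequent near members on 19 of 20 chromosomes, but in 7 of 10 deciles of the file. Within 500 bp the shares were 10.5 and 6.14%, higher in members on 20 of 20 chromosomes and lower in members in 7 of 10 deciles. In the first decile the shares within 10 kb were 39.5% of 648 members and 45.3% of 64 peaks of day 3 alone. GFP day 0 peaks, from a list of 2475, lay within 10 kb of 8.34% of members and 6.05% of day 3 alone, and were the more frequent near members in 8 of 10 deciles. With each of the 6 lists counted, 66.0% of members (65.1 to 66.9%) and 61.2% of day 3 alone (60.6 to 61.9%) had a peak within 10 kb. The part of these background peaks in the distances to Jun was not tested.

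**Figure D5:**
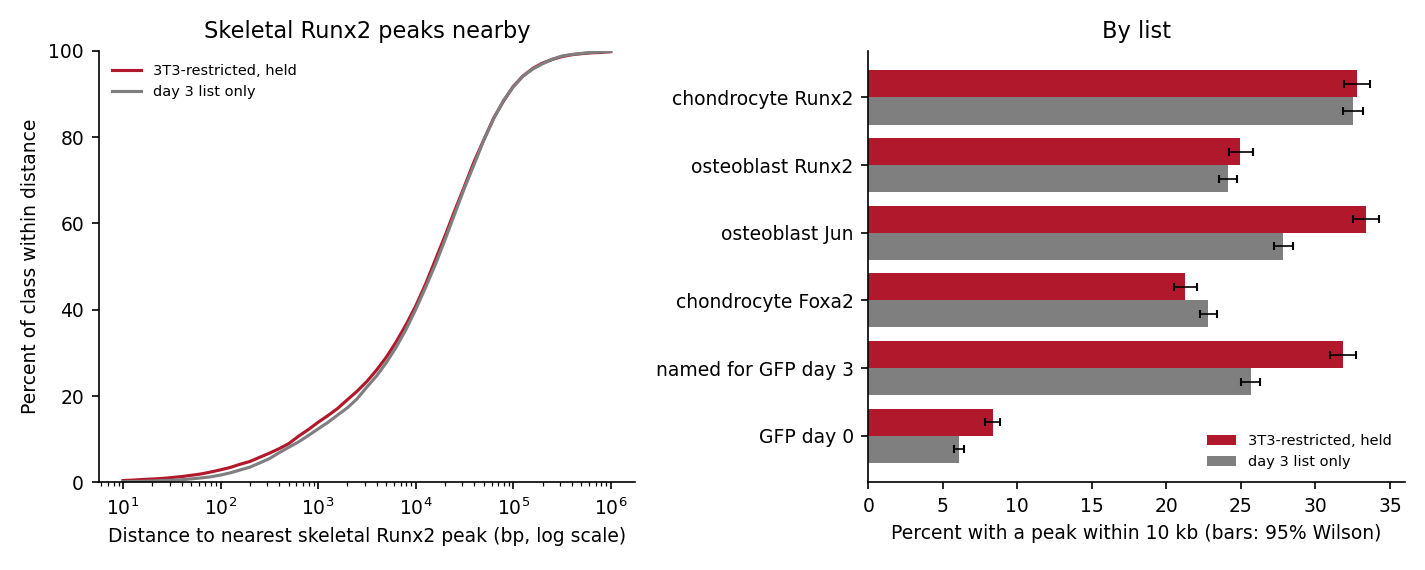
Left: percent of members and of day 3 alone (y axis) with a skeletal Runx2 peak within the distance on the x axis (bp, log scale), where the curves nearly coincide at 10 kb and members lie slightly higher at short range. Right: percent of each class with a peak of the named list within 10 kb (x axis, bars from 0 with 95% Wilson intervals). Jun reached 33.4% of members and 27.8% of day 3 alone, and Foxa2 21.3% and 22.8%.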

How the data were processed

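The authors deposited 8 peak lists, each with chromosome, start and end in 3 columns and no score. Per the submitters' processing notes, coordinates are in mm9. The same notes name Bowtie and DiffBind without saying for which step. How peaks were called, and against which control, is not given in the sources used here. The members and the classes set beside them were chosen with earlier results of these data known. Lists were used under their own names, including the 2 with crossed labels. Overlap meant 1 bp or more. Distances are the bases between peak edges, positions are printed 1-based, and deciles are 10 equal parts of a list in file order. Overlap counts differed from bedtools 2.31.1 for 0 of 7 lists, and distances to skeletal Runx2 for 0 of 11118 members. Regions named were the 5 widest, the first 5 in the file, the 5 fullest windows of 100 kb, the longest chain and the 3 nearest to the border on each side, unless stated otherwise. A gene annotation and sequence of mm9 were not used here, so the planned counts of genes and motifs were not run, and no sequence is printed. ATAC-seq, input and IgG libraries were not analysed here. The computations used pandas 2.3.3, SciPy 1.17.1 and NumPy 2.4.6 under Python 3.11.15, with matplotlib 3.10.9 for figures. Alternatives are given in the closing section.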

Additional observations from a re-analysis of the deposited data

How the results depend on the processing

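The number of members (11118) stayed within 1.5 times under 8 of 11 alternatives, and the exceptions were the exchange of the crossed lists (1015), the first 50% of each list (5349) and the wider 50% (4506). Shorter lists hold fewer partners and fewer peaks to leave out. With the exchange, the median width was 198 bp, the median file position 34.9%, the share with the day 0 centre within 50 bp 27.6%, the share with another member within 12500 bp 17.54% and the share with a skeletal Runx2 peak within 10 kb 54.3%. In the same order of quantities, the first 50% of each list gave 187 bp, 21.5, 70.1, 33.0 and 30.2%, and the wider 50% gave 279 bp, 47.5, 52.4, 27.1 and 28.7%. A margin of 500 bp around the lists left out gave 212 bp, 46.7, 63.7, 36.2 and 33.9%. Centres within 250 bp as the overlap rule gave 210 bp for width, 46.0% for file position, 60.7% for the day 0 centre and 39.9% for skeletal Runx2. An overlap of 50% of the shorter peak gave 42.6% for file position, 65.6% for the day 0 centre and 44.3% for skeletal Runx2. Leaving out no GFP list gave 40.5% for file position, 60.8% for the day 0 centre, 49.2% for another member and 42.7% for skeletal Runx2. Leaving out GFP day 0 alone gave 41.2% for file position, 48.1% for another member and 42.3% for skeletal Runx2. The share with another member was 41.8% with peaks set to 200 bp and 40.4% with overlapping peaks merged (an alternative chosen after seeing the data). A limit of 25 bp gave 39.3% for the day 0 centre, and limits of 50 kb gave 72.8% for another member and 79.4% for skeletal Runx2. The other medians and shares stayed within the counting interval of the main value, and without the sex chromosomes each of the 5 did, with 11006 members. The cause of these shifts was not tested. No paired analysis was possible because each group has 1 peak list. With no sequencing depth given, it is not known which sites a list could have missed.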
